A study of Mus musculus with 4 samples.

Results

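Accessible chromatin was examined at 9 genes for transcription factors of the osteoblast lineage in bone mesenchymal stem cells (MSCs) of old and young mice: Dlx1, Dlx2, Dlx3, Dlx5, Dlx6, Msx1, Msx2, Sp7 and Atf4. A peak was taken for a gene when it overlapped the gene or the 20 kb upstream of its start in the GENCODE vM21 annotation of GRCm38, the assembly also named mm10. This rule uses position alone, and it gave 26 of the 117282 peaks in the table. Each gene had at least 1 peak, with 11 peaks at the 5 Dlx genes, 8 at Msx1 and Msx2, 6 at Sp7 and 1 at Atf4.

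ATAC-seq, in which a transposase inserts sequencing adapters into open DNA, was carried out on 2 samples of old MSCs (mice of 18 to 22 months) and 2 samples of young MSCs (mice of 3 to 5 months). All 4 samples were kept at 2% O2, so low oxygen was shared by both age groups and no sample at another oxygen level was part of the comparison. The paper's methods describe bone cells of wild-type male mice on the C57BL/6N background, sorted as CD45-, Ter-119-, Sca-1+ and CD140a+, but they give the young age range only and do not describe the old samples. The paper calls its ATAC-seq replicates of hypoxia- and normoxia-cultured cells biologically independent, but neither the labels nor the methods say whether the 2 samples of an age group compared here came from separate animals or pools, so the p-values below measure the spread between these samples, which may be technical.

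Dlx and Msx genes encode homeodomain proteins that pattern the jaws, teeth and limbs and act again when osteoblasts form. The Dlx genes lie as convergently transcribed neighbours, Dlx1 beside Dlx2, Dlx3 beside Dlx4 and Dlx6 beside Dlx5. Dlx proteins mostly activate bone genes, whereas Msx1 and Msx2 are mainly known as repressors that can bind the same DNA core. Sp7, also called osterix, is a zinc finger factor without which osteoblasts do not form, and Atf4 is a basic leucine zipper factor that supports amino acid supply and matrix synthesis in osteoblasts.

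The deposited values are counts per peak scaled to 10000000 per library and not divided by peak length. Library totals were 28600303 and 32559794 counts in old replicates 1 and 2 and 28259470 and 29413803 in young replicates 1 and 2. The counts in peaks were 12527509 and 16364973 in the old and 16259095 and 18493628 in the young samples. The share of counts in peaks was thus lower in both old samples than in either young sample. Whether a count equals a read was not settled, since the bins that chromstaR counts in overlap. A level of 3 counts corresponded to a deposited value between 0.921 and 1.06. Before samples were compared, values were divided by relative log expression (RLE) factors, obtained per sample as the median over peaks of its ratio to the 4-sample geometric mean, which were 0.813 and 1.01 in the old and 1.07 and 1.15 in the young samples. Levels were compared between genes only after division by peak length, as scaled value per kb. The mitochondrial share of the summed values was lower in old replicate 2 (6.52%) than in the other samples (13.5% to 15.7%). A promoter peak was present at 12 of 12 MSC marker genes, and their summed level per kb was 223 to 232 in old and 209 to 212 in young samples. Mean levels of single MSC markers ran from 6.42 per kb at Eng and 8.51 at Lepr to 36.3 at Itgb1. Promoter peaks were also present at 2 of 2 muscle genes (Myod1 8.86 and Myf5 8.84 per kb) and at 2 of 2 cartilage genes (Acan 8.04 and Col2a1 39.0). Among neuron genes, 1 of 2 had a promoter peak (Syt1, 11.4 per kb). The blood markers Ptprc (CD45), Itgam and Cd3e had no promoter peak, and that of Spi1 measured 15.4 and 12.2 per kb in old and 19.9 and 12.7 in young samples. Of the endothelial markers, Cdh5 and Emcn had no promoter peak, and Pecam1 did (12.2 to 15.8 per kb in old and 12.7 to 16.3 in young samples). The part of cell makeup in the results below was not tested.

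The DNA of 4 stretches is given because the results turn on their peaks. First come the 250 bases before Msx1, whose promoter had the highest level per kb and was lower in both old samples. Next are the 250 bases before Dlx5, whose single peak had close replicates in both age groups after RLE scaling. Last are the central 300 bases of the Dlx6 peak with the highest log2 fold change and of the strongest peak at Sp7. All were read from GRCm38, 5′ to 3′, and capitals mark a match to one of the 6 motifs listed after them.
Msx1 upstream (chr5:37824584-37824833, minus strand): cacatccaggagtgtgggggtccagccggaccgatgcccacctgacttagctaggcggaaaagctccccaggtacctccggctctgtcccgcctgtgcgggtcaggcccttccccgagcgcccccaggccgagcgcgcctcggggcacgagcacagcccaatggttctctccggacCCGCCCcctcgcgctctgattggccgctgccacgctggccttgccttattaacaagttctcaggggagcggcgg
Dlx5 upstream (chr6:6882086-6882335, minus strand): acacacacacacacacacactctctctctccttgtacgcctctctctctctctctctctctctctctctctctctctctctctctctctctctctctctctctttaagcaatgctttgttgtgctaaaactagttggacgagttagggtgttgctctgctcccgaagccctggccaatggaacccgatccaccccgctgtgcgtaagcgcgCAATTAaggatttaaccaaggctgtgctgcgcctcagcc
Centre of the Dlx6 peak 6.4 kb upstream (chr6:6856251-6856550, plus strand): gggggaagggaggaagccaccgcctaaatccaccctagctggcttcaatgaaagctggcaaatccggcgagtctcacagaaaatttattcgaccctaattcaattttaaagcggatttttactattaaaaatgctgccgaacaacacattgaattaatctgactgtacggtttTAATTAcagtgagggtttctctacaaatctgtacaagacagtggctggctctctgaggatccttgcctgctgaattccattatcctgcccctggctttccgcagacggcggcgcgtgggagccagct
Centre of the Sp7 peak 8.2 kb upstream (chr15:102377001-102377300, plus strand): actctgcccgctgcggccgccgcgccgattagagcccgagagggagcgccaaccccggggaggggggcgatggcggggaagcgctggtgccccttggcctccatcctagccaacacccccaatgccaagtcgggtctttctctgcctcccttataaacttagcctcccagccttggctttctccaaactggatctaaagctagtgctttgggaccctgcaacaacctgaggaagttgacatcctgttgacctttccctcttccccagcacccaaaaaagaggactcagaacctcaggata

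In the Msx1 stretch the capitals mark a GC box on the opposite strand, in the Dlx5 stretch the homeodomain core TAATTG on the opposite strand, and in the Dlx6 stretch the palindromic homeodomain core TAATTA. No capitals appear in the Sp7 stretch, since none of the letters searched occur there. Both strands were searched for TAATTA and its second form TAATTG, for the Runx core TGTGGT and the GC box GGGCGG, for the AP-1 site TGANTCA and for the cyclic AMP response element, whose letters are TGACGTCA. No matches overlap each other in the stretches shown.

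Among the central 300 bases of the 26 peaks, TAATTA occurred in 1 (6.78% of all peak centres), TAATTG in 1 (9.96%), TGTGGT in 0 (26.0%), GGGCGG in 6 (9.73%), TGANTCA in 3 (21.5%) and TGACGTCA in 0 (0.46%). The 250 bases upstream of the 9 starts held GGGCGG at 3 genes, Dlx2, Dlx3 and Msx1, beside 39.0% of 21938 protein-coding genes. TAATTG was found there at Dlx5 alone among the members, beside 7.23% of all genes, and the other 4 motifs at none of the 9 (1.97% to 13.0% of all genes). A match describes letters and not a bound site.

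Each of the 9 genes had a peak at its start or within 1 kb of it. The peaks of Dlx2, Dlx3, Dlx5, Dlx6, Msx1, Msx2, Sp7 and Atf4 covered the annotated start, and that of Dlx1 (chr2:71528301-71532400) began 188 bp past it, within the gene. Several were broad domains rather than narrow peaks: 5 of the 9 promoter peaks (55.6%) were at least 4 kb wide, beside 26.3% of all 13108 promoter peaks. The Atf4 peak (chr15:80253401-80265000) was 11600 bp wide and also covered the start of the neighbouring gene Rps19bp1, so that both genes share this value. The Dlx2 peak (chr2:71537601-71548300) was 10700 bp wide and reached from upstream of Dlx2 past its end, and the Dlx5 peak (chr6:6878401-6885600) covered 7200 bp. Both Dlx1 and Dlx2 peaks overlap the antisense gene Dlx1as, and the Dlx6 promoter peak also holds a start of Dlx6os1. ATAC-seq has no strand, so accessibility of these overlapping genes cannot be told apart.

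**Figure D1:**
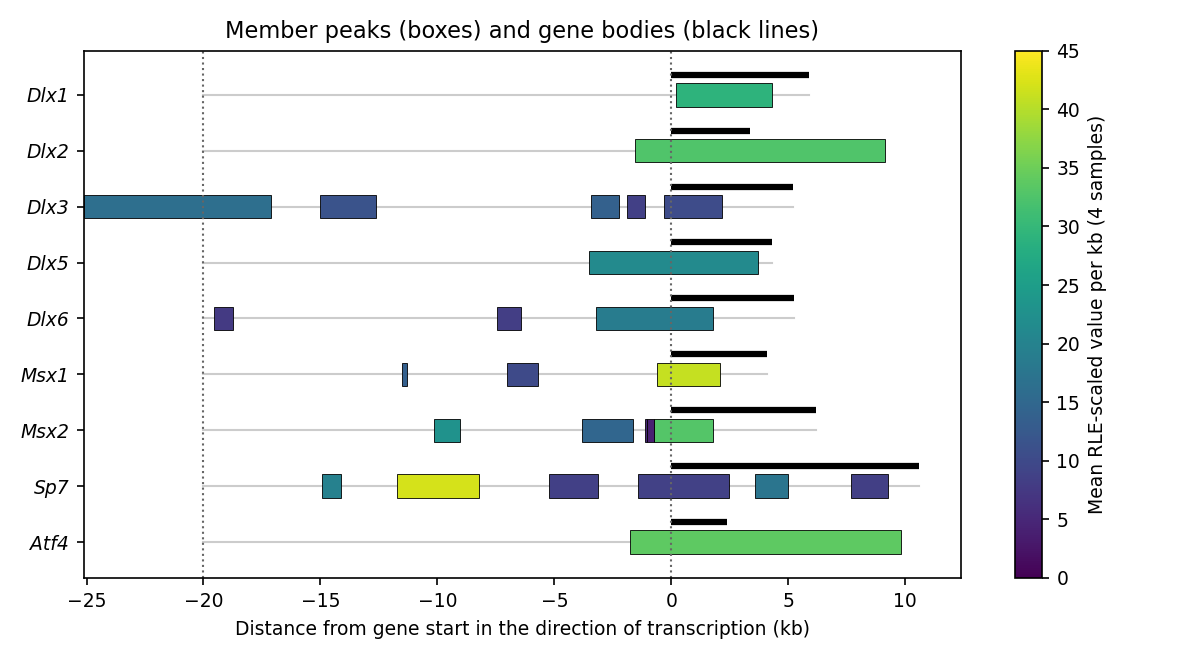
Each box is one of the 26 peaks, drawn by distance in kb from the start of its gene in the direction of transcription (black line, gene body; dotted lines, the start and 20 kb upstream) and coloured by mean RLE-scaled value per kb over the 4 samples. Dlx1, Dlx2, Dlx5 and Atf4 have a single broad peak, Sp7 has 6 peaks with its highest value (42.1 per kb) 8.2 kb upstream, and the box at the left edge of Dlx3 continues past the 20 kb line.

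The remaining peaks lay apart from the starts. Of the 26 peaks, 10 lay at or within 1 kb of a start (2 of them at Msx2), 14 lay outside protein-coding genes, 1 overlapped an exon of Sp7 and 1 lay in an intron of Sp7. The median width was 2150 bp, against 1200 bp for all peaks. Base composition was close to that of other promoters at the starts (median GC content 53.2% against 52.2%, and observed over expected CpG 0.598 against 0.524). The promoter of Sp7 had the lowest CpG ratio of the 9 (0.191), and that of Dlx3 had the highest (0.703).

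Promoter levels differed several-fold between members. Msx1 had the highest mean level, 41.1 per kb ± 6.91 (SD over 4 samples), followed by Atf4 with 33.8 ± 6.29, Msx2 with 33.0 ± 1.12, Dlx2 with 32.6 ± 3.08 and Dlx1 with 29.1 ± 3.63. The median of all promoter peaks was 29.96 per kb. Msx2, Dlx2 and Dlx1 stood between percentile 42.3 and 61.3 of all promoter peaks in the 4 samples. Atf4 ran from percentile 49.4 to 71.0, and Msx1 from 51.6 to 76.2. Dlx5 (21.4 ± 2.16) and Dlx6 (18.7 ± 2.09) were lower, and Dlx3 (10.3 ± 1.75) and Sp7 (8.77 ± 2.24) were the lowest. The Sp7 promoter stood between percentile 1.22 and 8.06 of all promoter peaks in the 4 samples, and the Dlx3 promoter between 4.78 and 12.4.

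Between neighbours in this order, the samples' ranges were separate at only 2 steps, from Dlx1 to Dlx5 and from Dlx6 to Dlx3. At the other 6 steps the ranges overlapped. Within each sample, however, Dlx2 was above Dlx1 and Dlx5 above Dlx6 in 4 of 4 samples, whereas Msx1 was above Atf4, Msx2 above Dlx2 and Dlx3 above Sp7 in 3 of 4, and Atf4 above Msx2 in 1 of 4.

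**Figure D2:**
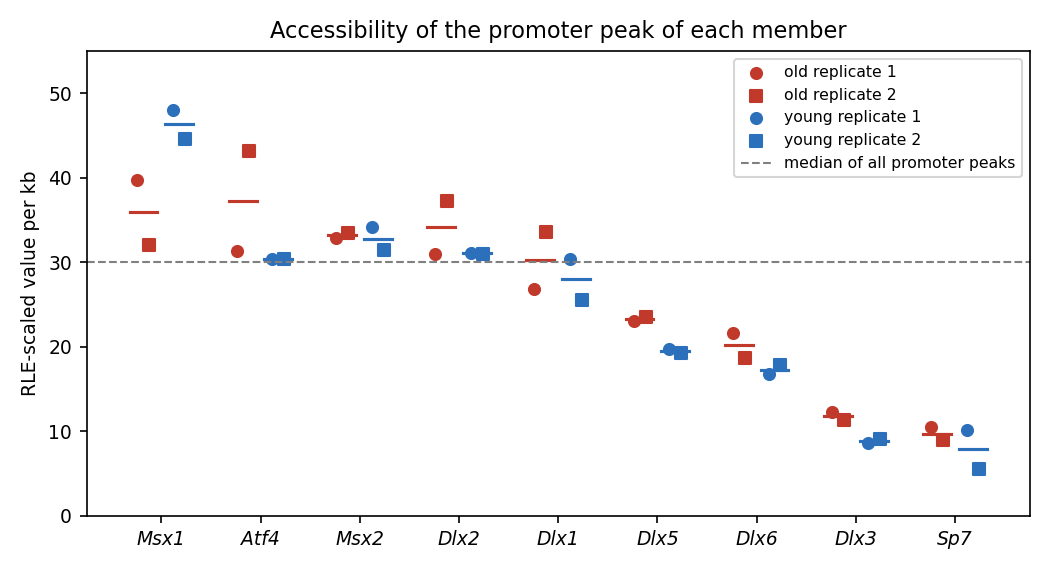
RLE-scaled value per kb of the promoter peak of each gene in each of the 4 samples (red, old; blue, young; circle, replicate 1; square, replicate 2), with a short bar at each group mean and a dashed line at the median of all promoter peaks (29.96 per kb). Msx1 lies at 39.7 and 32.1 per kb in old against 48.0 and 44.5 in young samples, while Dlx5, Dlx6, Dlx3 and Atf4 lie higher in both old samples than in either young sample.

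At Sp7 the promoter was not the most open site. The peak 8.2 kb upstream (chr15:102375401-102378900), whose centre is printed above, had a mean level of 42.1 per kb, whereas the other 5 Sp7 peaks lay between 8.34 and 19.6 per kb. Dlx3 was likewise spread over 5 peaks of similar low level (8.52 to 16.2 per kb), the densest being the one that begins 17.1 kb upstream, of which 2882 bp fall inside the 20 kb window. At Msx1, Msx2 and Dlx6 the promoter was the densest peak of the gene.

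To compare ageing with young MSCs, each peak was tested with limma on log2(scaled value + 1), with Benjamini-Hochberg adjustment over all peaks and a threshold of 0.01. No member peak passed, and 66 of all 117282 peaks did (0.0563%). The lowest adjusted p among members was 0.30 (limma), at Msx1. At an unadjusted p under 0.05, 2 of 26 peaks stood out, both lower in old MSCs, beside 16.4% of all peaks. With a median standard error of 0.24 on the log2 scale, differences of the size seen here were not separable from the spread between 2 and 2 samples.

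The log2 fold changes (old minus young) leaned to one side without passing the test. They were above 0 at 24 of the 26 peaks and below 0 at 2, with a median of 0.25, whereas the median over all peaks was 0.0011. Leaving out peaks that had 3 counts or fewer in any sample gave 22 of 23 above 0. The count of 24 also depended on single samples. It was 17 of 26 without young replicate 2 and 19 without old replicate 2, against 23 without young replicate 1 and 24 without old replicate 1. Both old samples exceeded both young samples at 12 of the 26 peaks (46.2%, beside 23.2% of all peaks), and both lay below them at 2 (beside 24.2% of all peaks). The samples overlapped at the other 12. In the values as deposited, without RLE scaling, the median over all peaks was -0.27 and the sign reversed at 13 of the 26 member peaks, leaving 11 above 0 and 15 below with a member median of -0.030, although 23 of the 26 still lay above the median of all peaks. The lean is therefore relative to other peaks of the same samples, and the share of members above 0 depends on the scaling.

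The lean differed between pairs of samples. Old replicate 1 exceeded young replicate 1 at 16 of 26 peaks (median log2 ratio 0.090) and young replicate 2 at 21 (0.16). Old replicate 2 exceeded them at 19 (0.26) and 23 (0.31). The median was above 0 in each of the 4 pairs, and larger with old replicate 2.

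**Figure D3:**
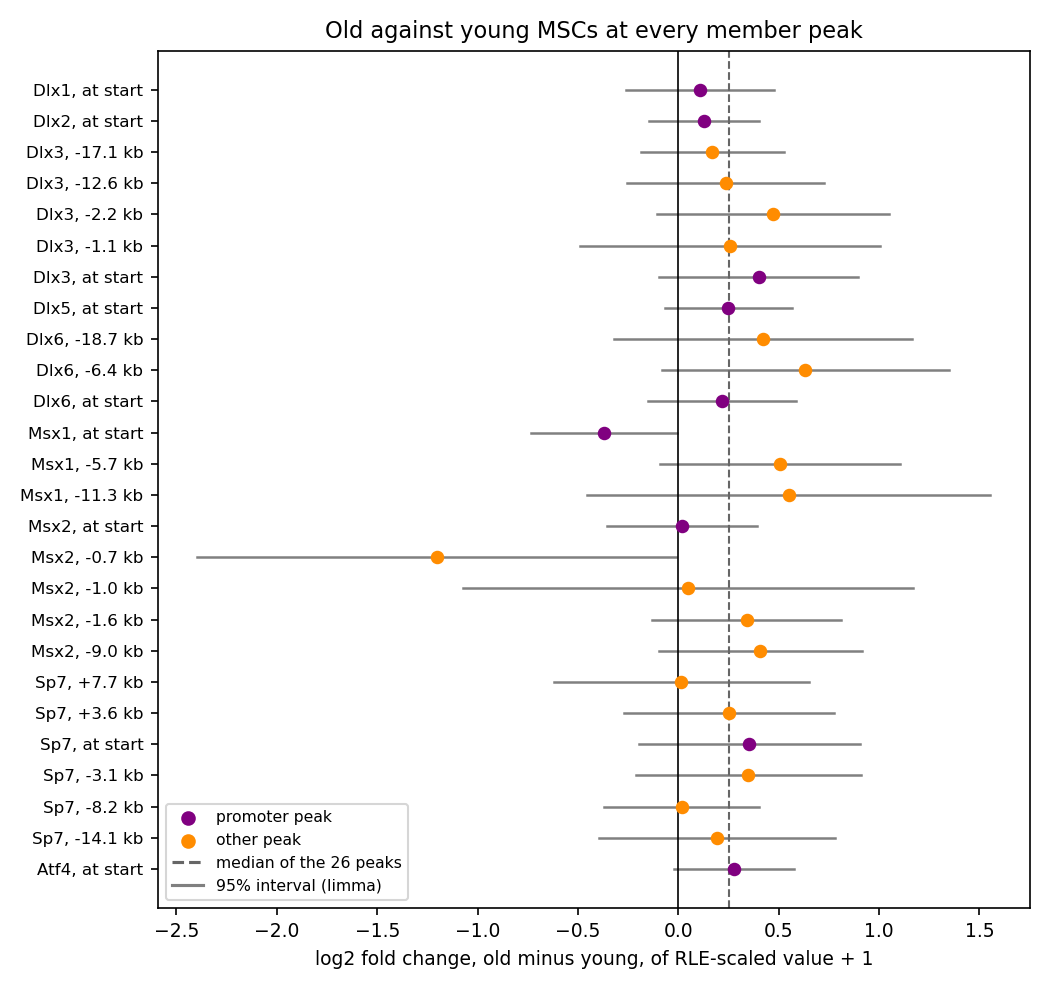
Points give the log2 fold change (old minus young) of the RLE-scaled value + 1 at each of the 26 peaks, labelled by distance from the gene start (purple, promoter peak; dark orange, other peak), with 95% limma intervals and a dashed line at the median (0.25). 24 points lie right of 0 and 2 left of it, at the Msx1 start and 0.7 kb upstream of Msx2, no peak passes the adjusted threshold, and without RLE scaling 15 of the 26 lie left of 0.

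Among the activators of the Dlx family, 11 of 11 peaks had a log2 fold change above 0 (0.11 to 0.63; 50.1% of all peaks were above 0), and at 7 both old samples were above both young samples (23.2% of all peaks). None passed the test, and 6 of the 11 turned below 0 in the values as deposited. Dlx5, a promoter of osteoblast differentiation, had scaled values of 166 and 169 in old replicates 1 and 2 and 142 and 139 in young replicates 1 and 2. After RLE scaling the groups did not overlap, and each was tight, so that the log2 fold change of 0.25 (SE 0.15) varied only from 0.22 to 0.28 between pairs of samples. Its adjusted p was 0.43 (limma), and in the values as deposited the sign reversed (-0.038). The deposited values were 135 and 170 in old and 152 and 159 in young samples, so that both young samples lay between the old ones.

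Dlx6, the convergent neighbour of Dlx5 with a closely related homeodomain, had 3 peaks. Its promoter (chr6:6860101-6865100) had values of 108 and 93.3 in old and 83.6 and 89.0 in young samples, again without overlap (log2 fold change 0.22, SE 0.18, adjusted p = 0.58, limma). In the values as deposited the direction at this promoter reversed (-0.070). The weak peak 6.4 kb upstream of Dlx6 (chr6:6855901-6856900), which also holds the start of the gene Gm44094, had the highest log2 fold change of all members. It measured 9.90 and 10.4 in old and 7.96 and 4.75 in young samples, from 16 to 34 counts. Old samples were above young ones, and the young samples differed more from each other than the old. The log2 fold change was 0.63 (SE 0.34, adjusted p = 0.37, limma). The third peak, 18.7 kb upstream, had 14 to 22 counts and a log2 fold change of 0.42 (SE 0.35).

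Dlx3, a homeodomain factor that acts in bone, tooth and hair and binds the promoters of matrix genes, had values at its promoter (chr11:95119801-95122300) of 30.6 and 28.4 in old and 21.6 and 22.6 in young samples. The groups were separate, and the log2 fold change of 0.40 (SE 0.24, adjusted p = 0.42, limma) was the highest of the 9 promoters. The densest peak of Dlx3, 17.1 kb upstream, measured 121 and 155 in old and 129 and 115 in young samples, which overlapped. The 4 upstream peaks of Dlx3 had log2 fold changes from 0.17 to 0.47. At 2 of the 4 the groups did not overlap, beside 55657 of all 117282 peaks in either direction. The lean of the 2 farthest of the 4 upstream peaks reversed in the values as deposited (-0.12 and -0.043).

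Dlx1 and Dlx2, neighbours best known from the forebrain and the jaws, had the log2 fold changes nearest 0 in the family. Dlx1 had values of 110 and 138 in old and 125 and 104 in young samples, and Dlx2 had 332 and 398 in old and 332 and 332 in young samples. At both genes old replicate 2 was the highest sample while old replicate 1 lay within or at the edge of the young range. The log2 fold changes were 0.11 (SE 0.17) at Dlx1 and 0.13 (SE 0.13) at Dlx2, with 95% intervals of -0.26 to 0.47 and -0.14 to 0.40, and both reversed in the values as deposited (-0.18 and -0.16).

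Msx1, a repressor-type homeodomain factor that holds progenitors in an undifferentiated state, was the exception among promoters. Its promoter peak (chr5:37822501-37825200) had values of 107 and 86.6 in old and 130 and 120 in young samples. Both old samples were lower than both young samples, and all 4 pairs ran the same way, with log2 differences between -0.58 and -0.16. The log2 fold change was -0.37 (SE 0.17, unadjusted p = 0.046 and adjusted p = 0.30, limma). In the values as deposited it was -0.66, but there the median of all peaks fell from 0.0011 to -0.27. A value already below 0 would stay so under that shift, so the kept sign is no separate check. With samples scaled to equal total signal it was -0.30 (adjusted p = 0.42, limma).

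Upstream of the same gene the log2 fold changes had the other sign. The peak 5.7 kb upstream of Msx1 measured 16.8 and 14.6 in old and 9.95 and 11.6 in young samples, without overlap (log2 fold change 0.51, SE 0.29, adjusted p = 0.39, limma). The 200 bp peak 11.3 kb upstream measured 3.87 and 2.74 in old and 0.995 and 3.26 in young samples. That peak held only 3 to 11 counts, young replicate 2 lay between the old samples, and the log2 fold change was 0.55 (SE 0.48). Whether the promoter and the upstream peaks of Msx1 differ from each other in their change was not tested.

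Msx2, the related repressor that acts in skull bone and tooth, had the promoter log2 fold change nearest 0 of the 9. Its values were 82.2 and 83.6 in old and 85.3 and 78.6 in young samples, so that the old samples lay within the young range. The log2 fold change was 0.017 with a 95% interval from -0.36 to 0.39, and it reversed in the values as deposited (-0.27). Beside this promoter peak lay 2 very small ones. The 300 bp peak directly upstream held 1 and 0 counts in old replicates 1 and 2, 2 in young replicate 1 and 12 in young replicate 2. Its scaled values were 0.43, 0, 0.66 and 3.56, so the difference rests on young replicate 2, and the other 3 samples were at or below 3 counts. The fitted log2 difference of -1.20 (SE 0.57, unadjusted p = 0.048 and adjusted p = 0.30, limma) depends on the pseudocount at such counts.

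The 100 bp peak next to it held 1 or 2 counts in each sample, which is below what can be compared. The 2 larger upstream peaks of Msx2, 1.6 and 9.0 kb from the start, had log2 fold changes of 0.34 (SE 0.22) and 0.41 (SE 0.24). At both, the old samples were above the young ones, as at 23.2% of all peaks.

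Sp7, the zinc finger factor of committed osteoblasts, had age groups that overlapped at most of its peaks. All 6 peaks had log2 fold changes above 0 (0.014 to 0.35), beside 50.1% of all peaks. The groups overlapped at 5 of the 6, whereas 55657 of all 117282 peaks had groups that did not overlap. In the values as deposited 4 of the 6 were below 0. Its promoter peak (chr15:102364701-102368600) had values of 40.9 and 34.8 in old and 39.5 and 21.7 in young samples. One young sample lay between the old ones and the other far below, and the log2 fold change of 0.35 (SE 0.26, adjusted p = 0.54, limma) was carried by young replicate 2: without that sample it was -0.068.

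The strong peak 8.2 kb upstream of Sp7 measured 119 and 181 in old and 152 and 138 in young samples. Both young samples lay between the old ones, and the log2 fold change was 0.016 with a 95% interval from -0.37 to 0.40. The exonic peak 7.7 kb inside Sp7 was as even, at 11.2 and 15.6 in old and 15.9 and 10.7 in young samples (log2 fold change 0.014, SE 0.30); this sign also reversed under quantile normalization (-0.021).

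Atf4, the leucine zipper factor, measured 363 and 501 in old and 352 and 352 in young samples. Both old samples were above the young ones, old replicate 1 by little and old replicate 2 by much. The log2 fold change was 0.28 (SE 0.14, unadjusted p = 0.066 and adjusted p = 0.34, limma), and it turned to -0.011 in the values as deposited. With 844 to 1643 counts this peak held the most counts of the 26 in every sample, and the old replicates differed by 1.38-fold.

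Old replicate 2 exceeded old replicate 1 in 5 of the 6 member peaks of 4 kb or more, Dlx1, Dlx2, Dlx3, Dlx5 and Atf4 (median log2 ratio of replicate 1 to replicate 2 of -0.29). Over all 8900 peaks of that width the median was -0.0099. The young replicates differed at the same 6 peaks by a median of 0.062 in absolute log2 ratio. The old replicates differed by 0.29 on that measure. A wider spread of the old replicates was not particular to these genes, since the same measure was 0.22 in old and 0.10 in young samples over all peaks of 4 kb or more.

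The calls depended on old replicate 1. Without it, the Msx1 promoter (log2 fold change -0.53, adjusted p = 0.0040, limma) and the Atf4 peak (0.51, adjusted p = 1.68e-06, limma) passed the threshold, which makes 2 of 26 peaks beside 8.83% of all peaks. In that fit the lone old sample was assumed to vary like the young group. Leaving out any other sample gave 0 called member peaks. Without old replicate 2 the log2 fold change was -0.21 at the Msx1 promoter (adjusted p = 0.45, limma) and 0.055 at Atf4 (adjusted p = 0.82, limma), so the size of both depended on which old sample was kept.

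Signal was also summed over all peaks of a gene and its 20 kb upstream, for 18118 protein-coding genes with a peak. No member locus passed the threshold, and no locus of any gene did (0%). No member reached an unadjusted p under 0.05 either (7.8% of all loci did). The log2 fold change was above 0 at 8 of 9 loci, with a median of 0.14 beside -0.012 over all loci, and the lowest adjusted p was 0.67 (limma). At 5 loci, Dlx3, Dlx5, Dlx6, Msx2 and Atf4, both old samples were above both young samples (beside 15.6% of all loci).

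In order of log2 fold change, the loci ran from Atf4 (0.28, SE 0.16), Dlx6 (0.27, SE 0.16), Dlx5 (0.25, SE 0.14) and Dlx3 (0.24, SE 0.15) through Msx2 (0.14, SE 0.15), Dlx2 (0.13, SE 0.13), Sp7 (0.12, SE 0.16) and Dlx1 (0.11, SE 0.18) down to Msx1 (-0.26, SE 0.16). Msx1 had summed values of 128 and 104 in old and 141 and 135 in young samples. It was the single member locus with both old samples below the young ones, beside 4593 of all 18118 loci. In the values as deposited all 9 loci were below 0, and 8 of them were still above the median of all loci, which was -0.30 there.

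**Figure D4:**
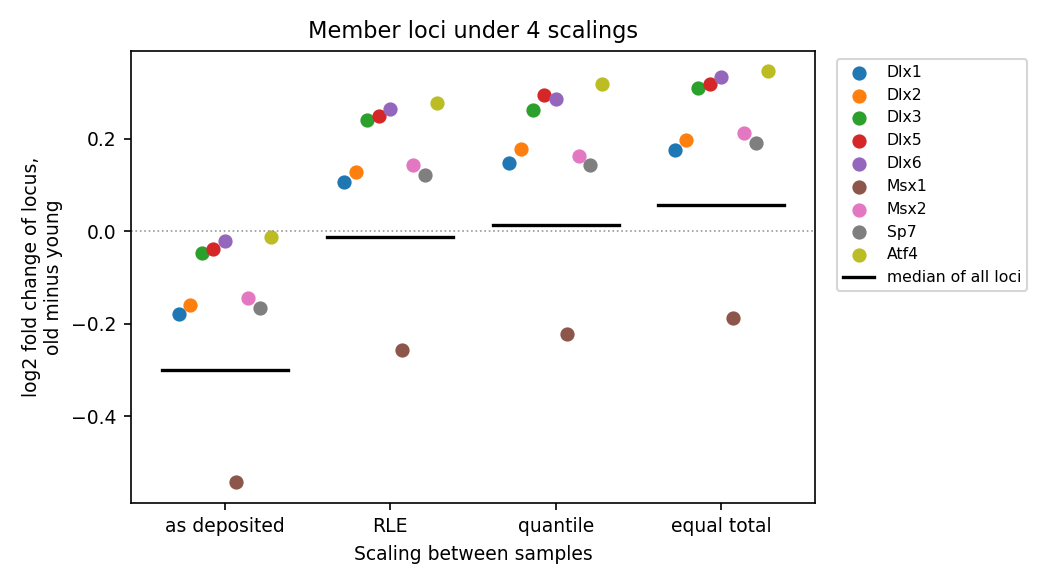
Points give the log2 fold change (old minus young) of the summed signal of each of the 9 loci under 4 ways of scaling the samples, and black bars give the median over all protein-coding loci. Msx1 is the lowest member under each scaling and lies below the bar, the other 8 lie above the bar under each scaling, and all 9 are below 0 in the values as deposited.

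Without old replicate 1, 3 loci passed the threshold, Atf4 (0.51, adjusted p = 6.95e-07), Dlx3 (0.36, adjusted p = 0.0057) and Msx1 (-0.41, adjusted p = 0.0091, all limma). In that fit 25.1% of all loci passed.

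Other regulators and targets of the osteoblast lineage were counted in the same way, as a list of 30 genes that includes Runx2 and its partner Cbfb, BMP ligands and receptors, Smad genes and bone matrix genes. They had 246 peaks, none of which is a member peak. None of the 246 passed the threshold, beside 0.0563% of all peaks. An unadjusted p under 0.05 was reached by 42 (17.1%), close to the 16.4% of all peaks. Of the 42, 28 were higher and 14 lower in old MSCs, beside 8790 higher and 10403 lower among all peaks. The lowest adjusted p of the list was 0.023 (limma). The median log2 fold change of the list was 0.067, and 56.1% of its peaks were above 0, against 92.3% of the member peaks and 50.1% of all peaks. These shares are after RLE scaling, and in the values as deposited 11 of the 26 member peaks were above 0. Genes of the list differed, and some leaned above 0 as the members did. Those named next were picked after their values were seen, and whether the lean is particular to the members was not tested. Above 0 were 8 of 9 peaks at Twist2, 4 of 4 at Foxc1 and 4 of 4 at Col1a1, but 3 of 14 at Mef2c and 0 of 3 at Bmp4. Dlx4, the Dlx gene beside Dlx3, had a promoter log2 fold change of -0.21 (SE 0.24), and Runx2, the runt factor that acts upstream of Sp7, had one of 0.37 (SE 0.20) over its promoter among 35 peaks; neither passed the test (adjusted p = 0.72 and 0.38, limma).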

How the data were processed

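ATAC-seq of 2 old and 2 young mouse bone MSC samples at 2% O2 was analysed. The authors deposited a table labelled RPKM, here handled as a score, since each value was a whole number of counts divided by the library total and multiplied by 10000000 (100% of values within 0.1 of a whole count) and was not divided by peak length. Per the labels, the authors used Bowtie2 and Picard with mm10. The paper's methods add peak calling with chromstaR, but for hypoxia- and normoxia-cultured cells, whose peaks the authors tested with edgeR. How old and young samples were processed is not given in the sources used here. Columns of fold changes or p-values were not among the data used.

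Peaks were assigned to genes by GENCODE vM21 coordinates; all lay within GRCm38 chromosomes. The fit was made with limma 3.58.1 in R 4.3.3 (lmFit, eBayes with trend and robust moderation) on log2(RLE-scaled value + 1), with Benjamini-Hochberg adjustment over 117282 peaks or 18118 loci and a threshold of 0.01. A fold change on this scale understates the change of weak peaks. A locus is the sum of all peaks touching a gene or its 20 kb upstream, whole peaks included. The limma step was tested on simulated data. Tables were summarised in Python 3.11.15 with scipy 1.17.1, pandas 2.3.3 and numpy 2.4.6; matplotlib 3.10.9 drew the figures.

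The genes and lists were chosen with earlier results of these data known. All 9 genes are named. Values in every sample were given for each promoter peak, for the 3 highest and 3 lowest log2 fold changes, for the strongest peak of a gene and for peaks with an unadjusted p under 0.05. Alternatives covered 3 scalings, a pseudocount of 0.1 or 5, removal of weak peaks, plain moderation, the replicate block, a threshold of 0.05, windows of 5 and 50 kb, a promoter of 2 kb, width weights and the omission of each sample in turn. limma-voom on recovered counts was added after the data were seen. Sequences were read from the GRCm38 genome. Counting floors cover counting error only. Part of the blood marker list is not reported here.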

Additional observations from a re-analysis of the deposited data

How the results depend on the processing

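No member peak, promoter or locus was called under any scaling, pseudocount, filter, moderation, window or threshold tried, nor with limma-voom, an alternative chosen after seeing the data; the planned edgeR test on recovered counts was not run, and limma-voom took its place. Leaving out each sample gave 0 to 2 called member peaks, 0 to 3 loci and 0 to 2 promoters, and every one of these calls came without old replicate 1. The called peaks of the 30 other osteoblast genes numbered 1 in the values as deposited, 3 with the replicate block, 3 at a threshold of 0.05 and 0 to 25 when a sample was left out. Each of these counts is out of 246 peaks. Of all peaks, 1.18% were called in the values as deposited, 1.08% with the replicate block and 1.12% at a threshold of 0.05. The 25 came without old replicate 1, where the share of all peaks called also rose, as given above. Whether the list differed from all peaks in these shares was not tested. The median log2 fold change of member peaks was 0.15 with a window of 50 kb and -0.030 in the values as deposited, where the median of all peaks fell to -0.27.

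The replicate block (the replicate number of the labels) left 0 member peaks and 0 member loci called and the member median at 0.25, while over all peaks it called 907 lower and 362 higher, against 36 and 30 without it. Same-numbered samples did not deviate together (correlation -0.099), and nothing states that they were handled together, so they share only a number.

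In the values as deposited the sign reversed at Dlx1 (-0.18), Dlx2 (-0.16), the Dlx6 promoter (-0.070), Dlx5 (-0.038), the Dlx3 peaks 17.1 and 12.6 kb upstream (-0.12 and -0.043), the Msx2 promoter (-0.27), the 100 bp Msx2 peak (-0.035), Atf4 (-0.011) and 4 Sp7 peaks (-0.25 exonic, -0.024 intronic, -0.27 and -0.077 at 8.2 and 14.1 kb upstream). The summed loci reversed there at Dlx1 (-0.18), Dlx2 (-0.16), Dlx3 (-0.047), Dlx5 (-0.038), Dlx6 (-0.021), Msx2 (-0.14), Sp7 (-0.17) and Atf4 (-0.011). Quantile normalization reversed the exonic Sp7 peak (-0.021).

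Leaving out a sample reversed some peaks, over ranges of -0.041 to 0.26 at Dlx1 (peak and locus), -0.040 to 0.54 at the Dlx3 peak 1.1 kb upstream, -0.00079 to 1.08 at the Msx1 peak 11.3 kb upstream, -0.044 to 0.070 at the Msx2 promoter and -0.13 to 0.22 at the 100 bp Msx2 peak. At Sp7 the ranges were -0.26 to 0.28 (exonic), -0.068 to 0.77 (promoter), -0.27 to 0.31 (8.2 kb upstream), -0.015 to 0.41 (14.1 kb upstream) and -0.057 to 0.31 (locus). The causes were not tested.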

Other observations

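Peaks outside the 20 kb window were read as well. With 50 kb upstream, 54 peaks belonged to the 9 genes, 41 of them with a log2 fold change above 0 (beside 50.1% of all peaks). None was called (0.0563% of all peaks were). The lowest adjusted p was at a peak upstream of Dlx3 (chr11:95085601-95086800), which measured 18.9 and 21.7 in old and 7.63 and 10.1 in young samples, with a log2 fold change of 1.12 (SE 0.29, adjusted p = 0.061, limma). This was more than any of the 26 peaks inside the window. In that window 8 of the 54 peaks had an unadjusted p under 0.05, beside 16.4% of all peaks. Of these 8, 4 were not among the 26 and higher in old samples, namely the Dlx3 peak above and those at chr11:95093001-95093500 (0.87, SE 0.35), chr11:95075301-95078400 (0.56, SE 0.23) and chr6:6817601-6819600 (0.54, SE 0.20). Another 2 were lower, at chr6:6826201-6828000 upstream of Dlx6 (-0.45, SE 0.20) and chr6:6908901-6910500 upstream of Dlx5 (-0.48, SE 0.22). The densest peak of the wider window lay upstream of Sp7 (chr15:102404701-102407900) with 137 per kb and a log2 fold change of 0.066 (SE 0.15), and the next upstream of Dlx6 (chr6:6829401-6831600) with 85.2 per kb and -0.18 (SE 0.16). Starts of other genes were not looked up in peaks outside the 20 kb window. A peak there may therefore be the promoter of a neighbouring gene.

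Between convergent Dlx genes, the stretch from Dlx6 to Dlx5 held a peak (chr6:6873601-6876700) of 53.8 and 46.7 in old and 35.8 and 35.0 in young samples (log2 fold change 0.49, SE 0.21, adjusted p = 0.26, limma). The stretch from Dlx1 to Dlx2 held a peak (chr2:71534101-71535400) of 11.6 and 9.76 in old and 11.9 and 15.7 in young samples (-0.34, SE 0.30, adjusted p = 0.61, limma). Downstream of Atf4, a peak of 1100 bp (chr15:80266001-80267100) measured 14.6 and 18.0 in old and 7.30 and 9.50 in young samples (0.88, SE 0.30, adjusted p = 0.14, limma). These peaks were picked out after their values were seen.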
